A study of Mus musculus with 76 samples.

Results

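The comparison described here sets mouse embryos whose mother and father had both received α-cypermethrin at the higher labelled dose, 10, against embryos whose parents had both received the lower labelled dose, 0.3. It takes 22 of the 76 RNA libraries of the study, the 10 titled Both_10Cyp and the 12 titled Both_0.3Cyp, and they were chosen by those titles alone. Every library is from the dorsal forebrain of a C57BL/6J embryo at embryonic day 16. Both parents of each embryo were dosed for 28 days, 7 days first and then 3 cycles of 2 days off and 5 days on, and were paired straight afterwards, so that the embryos came from parents dosed before mating. The unit of the dose is not given in the labels. The dose 10 libraries are 4 of batch 1 (replicates 1 to 4) and 6 of batch 2 (replicates 5 to 10), from 4 female and 6 male embryos. The dose 0.3 libraries are 6 of each batch, from 5 female and 7 male embryos. The 12 Ctrl libraries, whose parents both received vehicle, enter no test of this comparison, and their levels are printed only as a reference. No label says which embryos were littermates, so p-values measure the spread between these libraries, which may be smaller than the spread between litters.

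α-Cypermethrin is a pyrethroid insecticide. Pyrethroids act on voltage-gated sodium channels, which they hold open after a depolarisation, and are broken down by esterases and cytochrome P450 enzymes. At this age the dorsal forebrain still makes neurons: radial glia and intermediate progenitors divide beside the ventricle, upper-layer neurons leave for the cortical plate, interneurons arrive from the ventral forebrain, and young neurons begin to express channels, receptors and adhesion proteins.

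Markers of the labelled tissue were present in every library. Neurod6, a gene of young cortical excitatory neurons, lay between 452 and 601 CPM (counts per 1 M, scaled by library) at dose 10 and between 446 and 668 at dose 0.3. Emx1, a gene of dorsal progenitors and their neurons, lay between 45.4 and 98.2 CPM at dose 10, with a median of 54.9, and between 50.9 and 73.5 at dose 0.3, with a median of 61.8.

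The 2 groups differed in how deeply they were sequenced. Dose 10 libraries held 21.2 to 34.0 M counts (26.1 ± 3.74, SD, n = 10) and dose 0.3 libraries 17.8 to 19.8 M (18.7 ± 0.666, SD, n = 12), and the ranges did not overlap. The difference of 7.41 M had a 2-sided exact permutation p of 5.15e-06 with libraries exchanged within batches, the smallest that the 194040 arrangements allow. It was 8.86 M in batch 1 (p = 0.00476, exact permutation) and 6.37 M in batch 2 (p = 0.00216, exact permutation). The dose and the depth of a library cannot be told apart in this design.

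A pair of dose 10 libraries, replicates 7 and 8 of batch 2, stood apart from the rest. Embryonic globin mRNA, summed over Hbb-y and Hba-x, which are expressed by the first red cells of the embryo, was at 11.9 and 11.1 CPM there, against at most 2.86 CPM in a dose 0.3 library. Hmga2, a gene of early neural progenitors, was at 8.90 and 7.62 CPM there, against 1.67 to 4.45 CPM at dose 0.3. The first principal component of the 22 libraries, which held 19.4% of the variance, put these libraries at −36.7 and −30.1 and the other libraries between −15.6 and 29.8. Results that rest on them are given with and without them. Outside this comparison, embryonic globin mRNA was higher still in Paternal_0.3Cyp replicates 3 and 4, at 21.4 and 82.0 CPM.

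A second measure separated libraries in another way. The ratio of mt-Atp6 to mt-Nd4l, which encode subunits of ATP synthase and of complex I, was between 3.77 and 20.9 at dose 10 (median 5.26) and between 9.36 and 28.6 at dose 0.3 (median 22.7), with 18.5 to 27.8 in Ctrl. It was under 10 in 7 of the 10 dose 10 libraries, replicate 1 and replicates 5 to 10, and in 1 of the 12 dose 0.3 libraries, replicate 2. Dose 10 replicates 2, 3 and 4, all of batch 1, had ratios of 18.7, 20.9 and 15.5. Outside this comparison the ratio was under 10 in 3 of 8 Maternal_10Cyp, 2 of 12 Maternal_0.3Cyp and 1 of 12 Paternal_0.3Cyp libraries. In Paternal_10Cyp it was under 10 in 0 of 10.

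**Figure D1:**
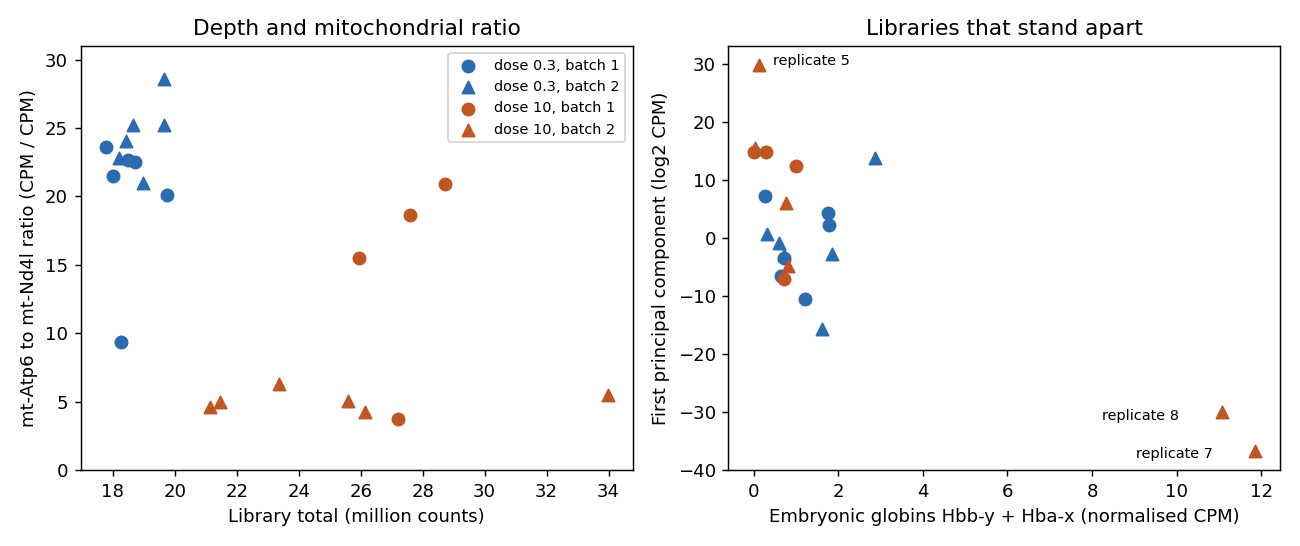
Library totals in M counts against the ratio of mt-Atp6 to mt-Nd4l (left), and embryonic globin mRNA in CPM against the first principal component (right), with 1 point for each of the 22 libraries. Dose 10 totals lie between 21.2 and 34.0 M and dose 0.3 totals between 17.8 and 19.8 M, and replicates 7 and 8 of dose 10 lie alone at 11.9 and 11.1 CPM of embryonic globin.

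At the level of single genes the doses gave nearly the same expression. Of 13781 genes tested with edgeR's quasi-likelihood test, with dose, batch and sex as terms, 2 passed a Benjamini-Hochberg adjusted p of 0.05, which is 0.0145% of the genes tested: Shc3 and mt-Nd4l, both higher at dose 10. No gene was called lower. At an unadjusted p under 0.05 there were 869 genes, or 6.31%, of which 464 were higher (3.37%) and 405 lower (2.94%). The median size of a log2 difference was 0.05, and the median standard error was 0.06. The 95% confidence interval lay within a 1.5-fold change in either direction for 12827 genes (93.1%) and within 2-fold for 13613 genes (98.8%). For no gene (0%) did the levels of the 10 and the 12 libraries lie apart without overlap.

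**Figure D2:**
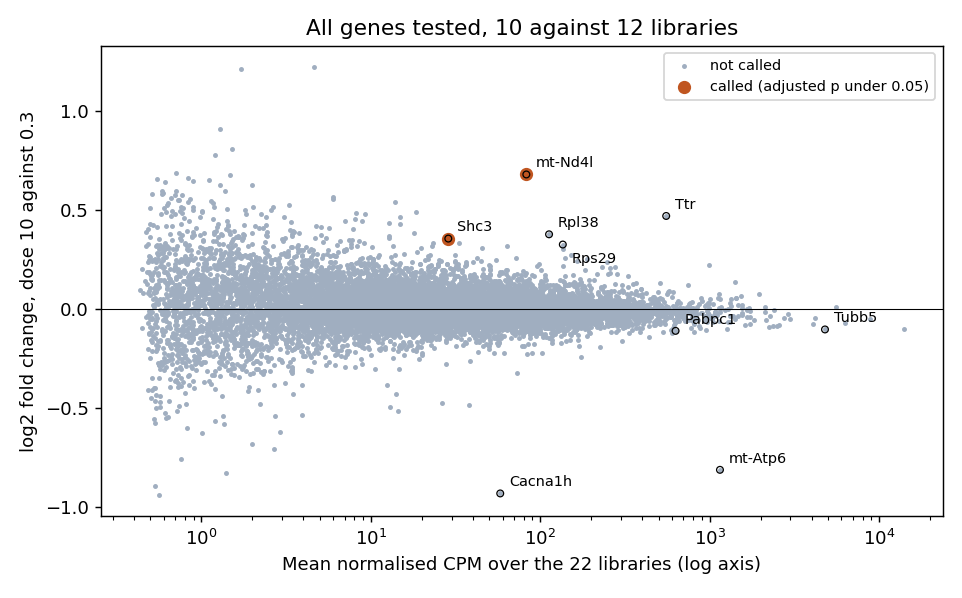
Log2 difference of dose 10 from dose 0.3 against mean expression for the 13781 genes tested, with the 2 called genes and other named genes marked. Most genes lie close to 0, and Shc3 and mt-Nd4l are the 2 that passed the adjusted threshold.

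Shc3 encodes an adaptor protein of neurons that binds activated receptor tyrosine kinases and passes their signal on. The gene lies on chromosome 13, from 51431041 to 51569419 on the minus strand of GRCm38. Its level was 28.2 CPM in the lowest, 32.9 in the median and 36.6 in the highest dose 10 library, and 21.8, 25.6 and 28.6 at dose 0.3. Dose 10 replicate 1 was the only one of the 10 below the highest dose 0.3 library, and all 10 were above the dose 0.3 mean. The log2 difference was 0.36 (SE 0.05, 95% confidence interval 0.25 to 0.46, adjusted p = 0.00632, edgeR's quasi-likelihood test). It was 0.40 within batch 1 and 0.32 within batch 2, and 0.34 between female and 0.37 between male embryos. In Ctrl the gene lay at 27.0, 33.2 and 39.5 CPM, a range that covers every dose 10 library and reaches into the dose 0.3 range. Leaving out each library in turn kept Shc3 called all 22 times. Of 19 other settings 13 called it, and its log2 difference ran from 0.33 to 0.47 over the 19. It was not called with 76 or 64 libraries, in either batch alone or with replicate number as a term. Nor was it called without the dose 10 libraries of low mt-Atp6 to mt-Nd4l ratio. In a fit of all 76 libraries, whose spread is estimated over all 7 groups, the log2 difference was also 0.36 but the adjusted p was 0.9995, and mt-Nd4l was the 1 gene called.

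mt-Nd4l is the other called gene, and it encodes a small membrane subunit of complex I, the first enzyme of the respiratory chain. It lies from 9877 to 10173 on the plus strand of the mitochondrial genome (GRCm38). Its level was 72.7, 103 and 129.7 CPM (lowest, median and highest library) at dose 10, and 45.9, 64.5 and 81.4 at dose 0.3. Dose 10 replicates 2 and 3 lay within the dose 0.3 range, the other 8 above it. The log2 difference was 0.68 (SE 0.11, 95% confidence interval 0.45 to 0.91, adjusted p = 0.0352, edgeR's quasi-likelihood test), with 0.47 within batch 1 and 0.85 within batch 2. Ctrl lay at 47.4, 61.1 and 78.2 CPM, close to dose 0.3. With a library left out, mt-Nd4l stayed called in 6 of 22 fits, those without dose 10 replicate 2, 3 or 5 or without dose 0.3 replicate 2, 6 or 8, and its adjusted p ran from 0.00398 to 0.123. Without the 8 dose 10 libraries whose mt-Atp6 to mt-Nd4l ratio lay below the lowest Ctrl ratio, 2 dose 10 libraries remained and the log2 difference was 0.11. That ratio has mt-Nd4l as its denominator, so that the removal itself lowers this difference.

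mt-Atp6 had the larger difference of the pair, in the other direction, without passing the threshold. Its level was between 489 and 1647 CPM at dose 10 (median 545), and between 762 and 1703 at dose 0.3 (median 1439.9). The 7 dose 10 libraries of low ratio lay between 489 and 640.1 CPM, under every dose 0.3 library, and replicates 2, 3 and 4 lay between 1357 and 1647. The log2 difference was −0.81 (SE 0.21, adjusted p = 0.452, edgeR's quasi-likelihood test), with −0.09 within batch 1 and −1.41 within batch 2. Fitted alone, batch 2 called mt-Atp6. Of the 13 protein-coding genes of the mitochondrial genome, 10 were above 0, with a median log2 difference of 0.08. mt-Atp8, which precedes mt-Atp6, was at 0.23 (SE 0.07), and mt-Nd4, which follows mt-Nd4l, at 0.14 (SE 0.06). The share of all counts that fell on these 13 genes was 1.39 to 1.82% at dose 10 and 1.32 to 1.86% at dose 0.3.

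The coding sequences of mt-Nd4l and mt-Atp6 each share bases with that of a neighbour. Those junctions are printed here because a read that falls on them fits both genes. The end of mt-Nd4l overlaps the start of mt-Nd4 by 7 bases, from 10167 to 10173, and the end of mt-Atp8 overlaps the start of mt-Atp6 by 43 bases, from 7927 to 7969. The sequences are from the GRCm38 plus strand, 5′ to 3′, chrM:10137-10203 and chrM:7912-7984, with the overlap in capitals.
mt-Nd4l and mt-Nd4: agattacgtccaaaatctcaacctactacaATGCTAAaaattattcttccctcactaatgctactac
mt-Atp8 and mt-Atp6: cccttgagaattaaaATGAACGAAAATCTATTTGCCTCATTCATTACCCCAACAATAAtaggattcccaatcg
In each, the capitals open with the start codon of the second gene and hold the stop codon of the first. How the deposited estimates divide such reads between neighbours is not given in the sources used here, so that levels of these 4 genes are uncertain.

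The genes of next lowest p among the higher ones were Atp5e (log2 difference 0.23, adjusted p = 0.0866), Zbtb34 (0.24, 0.0976), Plcxd2 (0.20), Rpl38 (0.38), Samd8 (0.20), Nucks1 (0.20), Rsph4a (0.63) and Mcc (0.57, adjusted p = 0.207), and none passed edgeR's quasi-likelihood test. Atp5e, the epsilon subunit of ATP synthase, lay at 91.9, 108 and 116 CPM at dose 10 and at 80.3, 91.4 and 100.2 at dose 0.3. Zbtb34, a zinc finger protein, lay at 35.8, 40.8 and 44.9 CPM against 28.7, 35.0 and 37.0. Samd8 encodes an enzyme that makes ceramide phosphoethanolamine, and Nucks1 a nuclear protein of chromatin. All 8 were above 0 within each batch, which the rule that named them required.

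Among the lower ones the lowest p belonged to Pabpc1 (−0.11, adjusted p = 0.252), which binds the poly(A) tail, Ercc2 (−0.15), a helicase of transcription and excision repair, and Eif5b (−0.22), a factor of translation initiation. They were followed by Tbcd (−0.13) and Tubb5 (−0.10), a tubulin cofactor and a β-tubulin, and by Dynlt1f (−0.18), Rbm18 (−0.09), Hdac7 (−0.16) and Ofd1 (−0.17, adjusted p = 0.452, edgeR's quasi-likelihood test). Pabpc1 lay between 581 and 627 CPM at dose 10 and between 609.7 and 706 at dose 0.3, so that the groups overlapped only between 609.7 and 627. Tubb5, an abundant mRNA of young neurons, lay between 4341 and 4907 CPM against 4713 and 5281. The differences of these 9 genes had the same sign within both batches, which the rule that named them required.

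**Figure D3:**
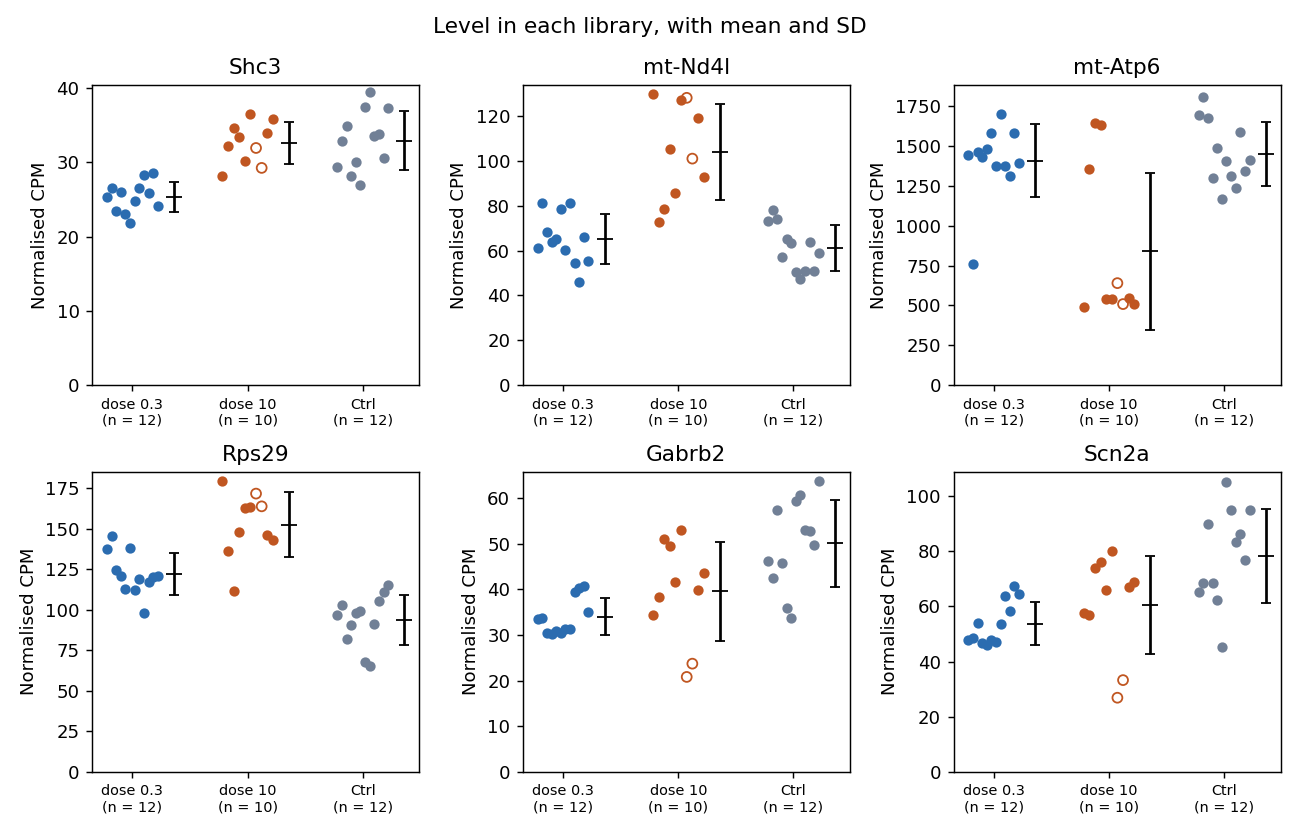
Level in CPM of Shc3, mt-Nd4l, mt-Atp6, Rps29, Gabrb2 and Scn2a in every library of dose 10, dose 0.3 and Ctrl, with bars for the mean and SD and hollow points for dose 10 replicates 7 and 8. Shc3 at dose 10 sits between 28.2 and 36.6 CPM and at dose 0.3 between 21.8 and 28.6, mt-Atp6 splits within dose 10, and the hollow points are the lowest of Gabrb2 and Scn2a.

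Short mRNAs made up part of the higher side. Among the 75 tested genes with transcripts of at most 500 bases, 80% were above 0, the median log2 difference was 0.09, and 22 were higher and 1 lower at an unadjusted p under 0.05, against 3.37% and 2.94% of all genes. The median of these 75 was 0.03 in batch 1 and 0.12 in batch 2. Long mRNAs were on the higher side too. Of the 3740 genes with transcripts over 4000 bases 61.7% were above 0. At an unadjusted p under 0.05, 181 of them were higher and 46 lower. Rps29, a short mRNA of the small ribosomal subunit, lay at 111, 155 and 179 CPM at dose 10 and at 97.9, 120.3 and 145 at dose 0.3 (log2 difference 0.33, adjusted p = 0.207, edgeR's quasi-likelihood test), with 0.15 in batch 1 and 0.47 in batch 2. Rps28 (0.31), Rps21 (0.26), Rpl38 (0.38), Rpl37 (0.25) and Atp5k (0.34) gave similar values, and each was larger within batch 2. The lists as a whole did not move with them: the 34 small-subunit genes had a median of 0.0033 and the 49 large-subunit genes one of 0.01. Among nuclear genes of complex I 8 of 36, and of complexes II to V 8 of 42, were higher at an unadjusted p under 0.05, with medians of 0.04 each, and none was called. Batch 2 fitted alone called 6 genes: Atp5k, mt-Atp6, Rpl37, Rpl38, Rps28 and Rps29. All 6 dose 10 libraries of batch 2, and replicate 1 of batch 1, had mt-Atp6 to mt-Nd4l ratios under 10. Without the 8 dose 10 libraries of a ratio below the lowest Ctrl ratio, 2 remained, both of batch 1. Rps29 was then at −0.080, Rps28 at −0.11, Rps21 at −0.10, Rpl38 at −0.10, Rpl37 at −0.12 and Atp5k at −0.086. That fit cannot tell the ratio from the batch, and the part of the ratio in these differences was not tested.

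Differences within the batches were unrelated over the genes as a whole. Across the 13781 genes the correlation between the difference within batch 1 and that within batch 2 was r = −0.00024, and 50.03% of genes had the same sign in both. Genes are not independent replicates, and the batches share no library. Without dose 10 replicates 7 and 8, both of batch 2, the correlation across 13845 genes was 0.38 and 70.3% of genes had the same sign. Batch 1 fitted alone called 18 genes, 15 higher and 3 lower, and neither Shc3 nor mt-Nd4l was among them.

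**Figure D4:**
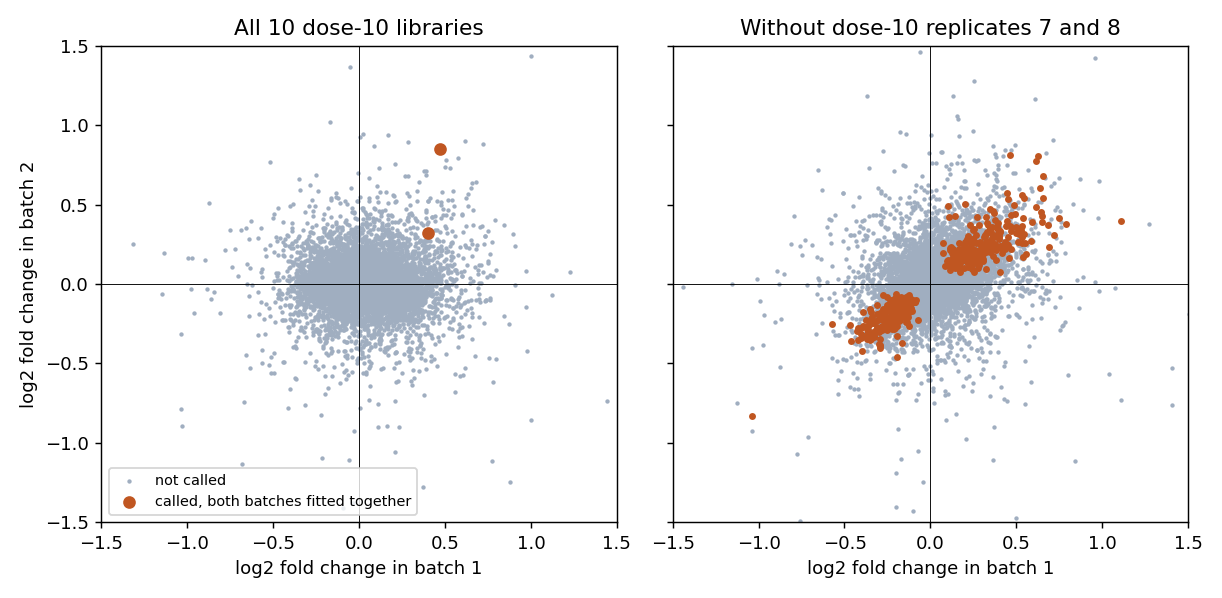
Log2 difference of dose 10 from dose 0.3 within batch 1 against that within batch 2, 1 point per gene, with all 10 dose 10 libraries (left) and without replicates 7 and 8 (right), on axes that leave out 5 and 10 genes beyond 1.5. The cloud has no tilt on the left (r = −0.00024) and follows the diagonal on the right (r = 0.38).

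Leaving out those 2 libraries moved the count of called genes from 2 to 495, 274 higher (1.98%) and 221 lower (1.6%) among 13845 tested (3.58%). All 495 had the same sign in both batches, against 70.3% of all genes tested. A fit of both batches together favours such genes, so that this is no separate support. The median size of the 495 differences was 0.23 on the log2 scale. For 243 of the 274 higher genes, replicates 7 and 8 both lay below the dose 0.3 mean of their batch, with medians of −0.45 and −0.37 on the log2 scale. For 192 of the 221 lower genes both lay above it, with medians of 0.27 and 0.23. These libraries therefore lay on the opposite side of dose 0.3 from the other 8 for most of these genes. The genes and values in the next 3 paragraphs come from the fit without them and were chosen after their values were seen, and all their adjusted p-values are from edgeR's quasi-likelihood test.

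In the 8 remaining libraries of dose 10, genes of cell division were lower. Averaged over the mitosis list, in log2 against dose 0.3, replicates 7 and 8 were the highest of the 22 libraries (0.53 and 0.51). Over the GABA receptor list they were the lowest (−0.61 and −0.51). Leaving them out therefore by itself lowers division genes and raises these receptor genes at dose 10. Replicate 5, at the other end of the first principal component (29.8), was kept. In bulk tissue fewer cells of a type and less RNA per cell cannot be told apart. Of the 32 DNA replication genes 14 were called lower and none higher, with a median log2 difference of −0.23. Over all genes tested 1.6% were called lower and the median was 0.00047. Lig1, the ligase that joins Okazaki fragments, lay at 41.8, 51.0 and 60.4 CPM in those 8 and at 55.8, 64.5 and 82.0 at dose 0.3, and was at 83.6 and 75.5 in replicates 7 and 8 (−0.33, SE 0.06, adjusted p = 0.0166). Mcm2 (−0.33) and Mcm5 (−0.27), subunits of the replicative helicase, Gins1 (−0.32) and the sliding clamp Pcna (−0.17) were among the other 13. Of 31 mitosis genes 11 were called lower, with a median of −0.29, among them Cdk1 (−0.33), the kinase that drives entry into mitosis, Ccnb1 (−0.36), its cyclin, Aurka (−0.32) and Cdc20 (−0.33). Cdk1 lay at 29.2, 33.0 and 42.3 CPM in the 8, at 36.3, 42.7 and 57.9 at dose 0.3, and at 65.0 and 66.0 in replicates 7 and 8. Tcf19, whose expression peaks in the cell cycle, was the one gene of all tested (0.00722%) whose 8 and 12 libraries did not overlap: 14.7 to 18.7 CPM against 18.8 to 25.5. Genes of progenitors followed, with Pax6 (−0.33), Lhx2 (−0.20) and Vim (−0.25) of 17 radial glia genes and Sstr2 (−0.24) and Btg2 (−0.27) of 14 intermediate progenitor genes called lower.

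In the same 8 libraries some genes of neuronal signalling were called higher, a minority of each list. Over all genes tested in this fit 1.98% were called higher and 1.6% lower. Of 19 GABA receptor genes 7 were called higher, with a median of 0.22. Among them were Gabrb2 (0.37), Gabrb1 (0.41) and Gabra4 (0.23), subunits of the chloride channel, Gabbr2 (0.30) of the metabotropic receptor and its partner Kctd12 (0.19). Gabrb2 lay at 34.3, 42.6 and 53.0 CPM in the 8, at 30.3, 32.5 and 40.8 at dose 0.3, and at 20.8 and 23.7 in replicates 7 and 8. Of 11 sodium channel genes, the pyrethroid target, 3 were called higher: Scn2a (0.35, SE 0.07, adjusted p = 0.0166), Scn3b (0.22) and Scn8a (0.19). Scn2a, an α-subunit of young excitatory neurons, lay at 57.0, 68.0 and 80.1 CPM in the 8, at 45.96, 51.1 and 67.6 at dose 0.3, and at 26.9 and 33.3 in replicates 7 and 8. Potassium channels had 6 of 31 genes called higher, among them Kcnq5 (0.35) and Kcnma1 (0.31), and the glutamate receptor list had 3 of 20, Grin2b (0.37), Grid1 (0.24) and Neto1 (0.29). Synaptic adhesion and scaffold genes had 9 of 36, with Frmpd4 at 0.54, Dlg2 at 0.36 and Nlgn3 at 0.18, and calcium channels 1 of 21, Cacna1a (0.20). None of the 24 presynaptic release genes was called, and of 22 neuronal tubulin and microtubule genes 2 were called lower, Tuba1b (−0.15) and Tubb5 (−0.10). Of 14 upper-layer genes 2 were called higher, among them Inhba (0.38), and 1 lower, Lhx2, which is also on the radial glia list. No deep-layer gene of 14 was called. In Ctrl the median of Scn2a was 80.1 CPM, that of Gabrb2 51.3 and that of Cdk1 29.5, so that the median of the 8 lay on the Ctrl side of the dose 0.3 median for these genes.

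Of the 495 called genes 82 were in the lists, 44 higher and 38 lower. The count of 495 rests on leaving out libraries for a feature of their own expression. Without the 8 libraries of either group with an mt-Atp6 to mt-Nd4l ratio under 10, 3 dose 10 and 11 dose 0.3 libraries remained. Those 3, replicates 2, 3 and 4, are all of batch 1, so that the dose difference then rests on batch 1. They are also part of the fit that gave 495, so that the fits are not independent. Called genes were 95 (74 higher and 21 lower, a choice of libraries made after seeing the data), with Scn2a, Gabrb2 and Grin2b among them. Of the 71 named genes, the fit that gave 495 newly called 36, and the fit that gave 95 newly called 8. Lig1, Gins1, Bub3 and Pax6 were not called in the latter, nor were Scn3b, Scn8a, Nlgn3 and Frmpd4. Their differences kept their sign, and with 3 dose 10 libraries a missing call does not show that a difference is absent.

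With all 22 libraries, no list had a called gene other than mt-Nd4l. DNA replication genes were below 0 for 31 of 32 (median −0.11) and mitosis genes for 30 of 31 (median −0.12), with medians of −0.22 and −0.28 in batch 1 and of −0.02 and 0.02 in batch 2. The median over all genes tested was 0.00036. GABA receptor genes were above 0 for 17 of 19 (median 0.10, 0.28 in batch 1 and −0.04 in batch 2), glutamate receptor genes for 17 of 20 (median 0.06) and synaptic adhesion genes for 32 of 36 (median 0.07). Nlgn3 (0.16) and Frmpd4 (0.42), a neuroligin and a scaffold of dendritic spines, had the lowest p of the adhesion list. Radial glia genes had a median of −0.04, intermediate progenitor genes one of −0.05, upper-layer genes 0.04 and deep-layer genes 0.06. Rorb, of upper-layer neurons, was at 0.19 (SE 0.09) and Bcl11b, of deep-layer neurons, at 0.06 (SE 0.04).

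**Figure D5:**
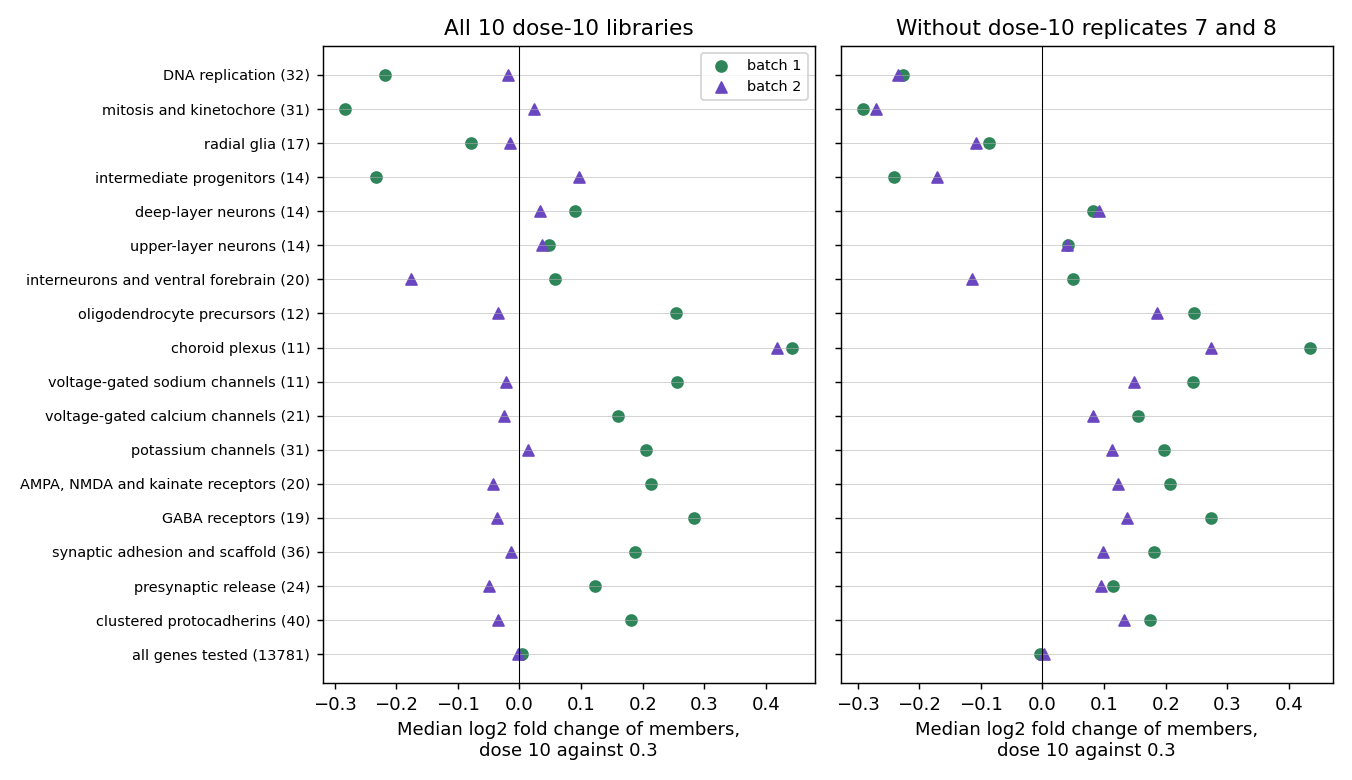
Median log2 difference of dose 10 from dose 0.3 for each gene list, within batch 1 and within batch 2, with all libraries and without dose 10 replicates 7 and 8. With all libraries the mitosis list lies at −0.28 in batch 1 and 0.02 in batch 2, and without the 2 libraries at −0.29 and −0.27.

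The sodium channels, the direct target of the compound, were above 0 for 10 of 11 genes, with a median of 0.11 (0.26 in batch 1 and −0.02 in batch 2), and none was called or had an unadjusted p under 0.05. Scn2a lay at 26.9, 66.4 and 80.1 CPM at dose 10 and at 45.96, 51.1 and 67.6 at dose 0.3 (log2 difference 0.17, 95% confidence interval −0.14 to 0.48). Scn1a was at 0.08 (−0.33 to 0.50), Scn3a at 0.05 (−0.11 to 0.22) and Scn8a at 0.11 (−0.04 to 0.25). The auxiliary subunits Scn2b and Scn3b were at 0.23 and 0.11. Within batch 1 the 6 named channel genes lay between 0.15 and 0.52, and within batch 2 between −0.20 and 0.03. Among calcium channels Cacna1h, a T-type channel, had a log2 difference of −0.93 but lay anywhere between 11.2 and 105 CPM at dose 10 and between 6.50 and 139 at dose 0.3.

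Choroid plexus genes were the list with the largest median. All 11 tested members were above 0, with a median of 0.43 (0.44 in batch 1, 0.42 in batch 2, and 0.34 without replicates 7 and 8). At an unadjusted p under 0.05, 7 of them were higher, against 3.37% of all genes tested, and none was called. Ttr, the thyroxine carrier secreted by this epithelium, lay at 386, 645 and 1005 CPM at dose 10 and at 235, 458 and 750.0 at dose 0.3 (log2 difference 0.47, SE 0.19). Clic6 (0.49), Folr1 (0.45), the folate receptor, and Calml4 (0.38) were alike. The list took 0.0462 to 0.116% of counts at dose 10, 0.0277 to 0.0873% at dose 0.3 and 0.00351 to 0.0984% in Ctrl. The ranges overlap widely, and how much choroid plexus each dissection held was not tested.

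Of 20 interneuron and ventral forebrain genes 14 were below 0, with a median over the list of −0.10 (0.06 in batch 1 and −0.18 in batch 2). At an unadjusted p under 0.05, 6 of the 14 were lower, against 2.94% of all genes tested. Without dose 10 replicates 7 and 8 the median was −0.02, and no gene of the list was called. Dlx1, a homeobox gene of interneurons, lay at 254, 280.5 and 330.4 CPM at dose 10 and at 269.6, 313 and 408 at dose 0.3 (−0.16, SE 0.05, adjusted p = 0.594, edgeR's quasi-likelihood test). Dlx1, Dlx6 (−0.25) and Nkx2-1 (−0.47), of the ganglionic eminences, were below 0 in both batches. The share of counts on this list was 0.133 to 0.162% at dose 10 and 0.138 to 0.198% at dose 0.3. None of the markers of microglia (19 genes, median −0.05), endothelial cells (19, 0.04), pericytes (11, −0.04) or meninges (16, 0.03) had an unadjusted p under 0.05.

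Genes of chemical and cellular stress differed little between the doses. Of 26 tested genes of xenobiotic sensing, transport and conjugation 1 had an unadjusted p under 0.05, Gstm7, a glutathione transferase (−0.16), and the median was 0.04. Without dose 10 replicates 7 and 8, Gstm7 was called lower (−0.22, adjusted p = 0.0284, edgeR's quasi-likelihood test) and Mgst3, another glutathione transferase, higher (0.21, adjusted p = 0.0391). Antioxidant genes had a median of 0.01, with Gclc, which starts glutathione synthesis, at −0.10. Heat shock genes had a median of −0.01, with the chaperone Hsp90ab1 at −0.08, and glucocorticoid genes one of 0.06, with the receptor Nr3c1 at 0.09 (95% confidence interval −0.06 to 0.24). Genes of DNA methylation had a median of 0.01 and histone deacetylases of −0.03. Hdac7 (−0.17) and Sirt6 (−0.16) of the latter list were called lower without replicates 7 and 8, and Kcnk9 (0.49), a potassium channel on the imprinted list, higher. Of 26 imprinted genes 20 were below 0 (median −0.03), with Asb4 at −0.38 and Dlk1 at −0.28, and Tuba1a, the main α-tubulin of young neurons, was at −0.10. Egr4 (0.29, SE 0.35), Nwd2 (0.32, SE 0.24) and Gfap (0.40, SE 0.34) had standard errors as large as their differences or nearly so.

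The difference between doses did not change detectably with batch or with sex. No gene passed the dose-by-batch test of edgeR (0%), and 549 genes (3.98%) had an unadjusted p under 0.05, with the interaction above 0 for 1.76% and below 0 for 2.22% of genes. The lowest p belonged to Mamdc4 (−1.46 in batch 1 and 1.82 in batch 2), Phyhd1 (−0.17 and 1.02), mt-Atp6, Cyth2 (−0.12 and 0.14) and Pgap3 (−0.40 and 0.23). No gene passed the dose-by-sex test (0%), with 191 genes (1.39%) at an unadjusted p under 0.05, above 0 for 0.82% and below 0 for 0.566%. Elk4 (0.36 in females and −0.13 in males), Duxbl1 (−1.40 and 1.95), Casz1 (−0.45 and 0.33), Vmn2r1 (1.246 and −0.24) and Prr3 (−0.14 and 0.04) had the lowest p.

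The same step in dose was also made when only the mother or only the father had been exposed, and the 3 differences share no library. In a fit of the 64 exposed libraries, no gene's difference after exposure of both parents departed from that after exposure of the mother (0% of 14260, and 8.43% at an unadjusted p under 0.05) or of the father (0%, and 5.5%) at an adjusted p of 0.05 by edgeR's quasi-likelihood test. At the unadjusted threshold the difference with both parents was the higher for 4.41% and the lower for 4.02% of genes against the mother, and for 2.75% and 2.76% against the father. Shc3 was at 0.36 with both parents, −0.07 (SE 0.12) with the mother and −0.09 (SE 0.11) with the father, with adjusted p-values of 0.536 and 0.728 for the departures. mt-Nd4l was at 0.71, 0.29 (SE 0.16) and 0.16 (SE 0.15). Lifr, a receptor of the leukaemia inhibitory factor family, had the lowest p against the mother, at 0.31 with both and −0.40 with the mother (adjusted p = 0.147), followed by Timm29, Fbh1, Pspc1 and Mcc. Myc had the lowest p against the father, at 0.18 with both and −0.22 with the father (adjusted p = 0.0538), followed by Mcc, Uqcrc2, Hbb-y and Exoc5. Mcc, which was at 0.58 with both parents, was at −0.29 (SE 0.16) and −0.36 (SE 0.14) with 1 parent exposed. limma with voom weights called 1146 genes against the mother and 105 against the father, so that these counts of 0 depend on the tool.

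Dose 10 libraries varied more among themselves than dose 0.3 libraries. The median residual SD of a gene, in log2 CPM, was 0.166 at dose 10 and 0.122 at dose 0.3, and 70.5% of genes had the larger SD at dose 10. Ctrl libraries were at 0.162, and dose 0.3 had the lowest median of the 7 groups. The groups with 1 parent exposed ran from 0.128 (Maternal_10Cyp) to 0.256 (Paternal_0.3Cyp). Without replicates 7 and 8 the dose 10 median was 0.139, and without replicate 5 as well, the library at the other end of the first principal component, it was 0.123, with 47.9% of genes above their dose 0.3 value. The largest ratios of SD belonged to Gucy1b1, a subunit of soluble guanylate cyclase (0.566 against 0.0720), and Necab1, a neuronal calcium-binding protein (0.827 against 0.125).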

How the data were processed

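RNA-seq of 22 libraries was compared, 10 of Both_10Cyp and 12 of Both_0.3Cyp, with groups, batch and sex taken from the labels. The deposited table holds expected counts, which the authors estimated per gene. The submitters' processing notes name Salmon 1.10.1, Trim Galore 0.5.0 and the build mm10. Its values are whole numbers, and how they were summed and rounded is not given in the sources used here. It holds 14823 genes, of which 14810 matched a symbol in GENCODE M21 (GRCm38) by gene ID. Any gene with fewer reads than the filter allows (filterByExpr, 1042 genes) was left out. The members and the gene lists were chosen with earlier results of these data known.

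The test was edgeR's (version 4.0.16, R 4.3.3) with TMM scaling, a robust quasi-likelihood fit with dose, batch and sex as terms, and Benjamini-Hochberg adjustment at 0.05, 2-sided. Printed levels are CPM on TMM-scaled totals of all 76 libraries. Library totals were compared with an exact permutation test within batches. Intervals are 95%. Named genes were those called, filled up to 10 in each direction by lowest p among genes of mean CPM of at least 1 with 1 sign in both batches, the 5 of lowest p in each other test, up to 4 per list, and a fixed set (mt-Atp6, mt-Nd4l, Rps29, Hmga2, Egr4, Nwd2, Gfap and 4 sodium channels). Predicted and clone-named genes were not named, and some genes that the rule names are not reported here. The fit without replicates 7 and 8 left out libraries more than 3 median absolute deviations above the median in embryonic globin. Deeper libraries give less counting error, so dose 10 is the better counted group. The labelled sex did not conflict with Y-linked genes in any library (0), and no library was a copy of another (smallest scaled chi-square 3.72 per gene). The procedure was tested on simulated data. Alternatives used DESeq2 1.42.0, limma 3.58.1, sva 3.50.0, other scalings, filters, terms and libraries.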

Additional observations from a re-analysis of the deposited data

Results flagged for a closer look

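In the dose 10 group 85 measures were screened for a single library far from the other 9, and chance alone gives about 1 in 20. The 12 dose 0.3 libraries were not screened. Nlgn3, a neuroligin of synaptic adhesion, was at 141.1 CPM in replicate 10, with the nearest library at 119.5, a gap of 0.541 of the whole range. Duxbl1, a homeobox gene, was at 3.991 CPM in replicate 10, with the nearest at 1.966 (0.547 of the range). Cyth2, an exchange factor for ARF proteins, was at 157.2 CPM in replicate 3, below the nearest at 178.9 (0.476 of the range).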

How the results depend on the processing

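The count of 2 called genes stayed at 2 with DESeq2 size factors in edgeR, with TMM without ribosomal and mitochondrial genes, without the filter, without the batch or the sex term, and with counts thinned to the smallest total. It was 22 with DESeq2, 4 with limma, 1 with all 76 libraries, 0 with the 64 exposed libraries, 12 with 2 surrogate variables, 5 with the embryonic globin ratio as a covariate and 5 with GC and length offsets. It was 18 in batch 1, 6 in batch 2, 495 when libraries of high embryonic globin were left out and 0 with the 2 dose 10 libraries left when the 8 of low mt-Atp6 to mt-Nd4l ratio were removed. It was 95 without all libraries of a ratio under 10, a choice made after seeing the data. Leaving out each library in turn gave 1 to 8 genes, with 8 without dose 10 replicate 3. Leaving out each library gave 0 to 1 genes for dose by batch and 0 to 0 for dose by sex, also choices made after seeing the data. Both parents against the mother gave 1146 with limma, and both against the father 105 with limma and 1 without the filter. The causes were not tested. No library was high in diencephalon genes, so that alternative was not run.

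Replicate numbers did not pair the libraries: same-numbered libraries correlated above 0.1 in 3 of 10 pairs (−0.22 to 0.30), and 1 of 10 dose 10 libraries was closest to its own number. With the replicate block 0 genes were called.

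Over 71 named genes and 19 other settings, 1221 values kept direction and side of the threshold, 81 passed it newly and 12 lost it. The 12 were 6 each for Shc3 and mt-Nd4l. A further 32 changed sign, all for genes that were not called. With limma Hmga2 was at −0.40. With the replicate block Gfap was at −0.069 and Olig1 at −0.064. With 2 surrogate variables Hmga2 was at −0.024, Egr4 at −0.16, Gfap at −0.14 and Scn1a at −0.065. With the globin covariate Egr4 was at −0.17, Nwd2 at −0.016, Gfap at −0.088, Scn1a at −0.10, Scn3a at −0.013 and Olig1 at −0.0095. In batch 1 Hmga2 was at −0.45. In batch 2 Nwd2 was at −0.0035, Scn1a at −0.20, Scn2a at −0.051, Scn3a at −0.016, Scn2b at −0.0084 and Grin2b at −0.0082. With libraries of high embryonic globin left out Hmga2 was at −0.51. Without the dose 10 libraries of low ratio mt-Atp6 was at 0.13, Rpl38 at −0.10, Rps29 at −0.080, Hmga2 at −0.55, Rps28 at −0.11, Rps21 at −0.10, Rpl37 at −0.12 and Atp5k at −0.086. Without all libraries of a ratio under 10 mt-Atp6 was at 0.056, Hmga2 at −0.69 and Rpl37 at −0.0067. With a library left out Hmga2 ran from −0.24 to 0.16. Depth limits genes of low counts most, and the 95% interval lay within 2-fold for 98.8% of genes.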
